A study of Mus musculus with 18 samples.

Results

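Mice turned in both directions without sight (D-V, 5 libraries) were set against mice that turned one way only and also could not see (S-V, 5 libraries), using RNA of the hippocampus. The 10 libraries were taken by their group labels from 18 in all. D-V is the condition that the labels call the Coriolis illusion. Both groups were rotated and both had vision occluded, so the direction of rotation is the labelled difference between them. The remaining libraries came from mice turned in both directions that could see (D+V, 5 libraries) and from a blank control (Control, 3 libraries), and their values are given for context. The study aimed at vestibular spatial disorientation, and the tissue was collected at once after the stimulus. Strain, sex, age, speed and length of rotation are not given by the labels, and no drug or altered gene is named for any group. The labels do not say that each library came from a separate animal, so p-values measure only the spread between these samples, which may be technical.

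The vestibular organs of the inner ear sense rotation and tilt, and their signals reach the hippocampus, which maps position in space. Rotation and restraint can also act as stressors. Stress raises corticosterone in rodents, which enters the brain and binds the glucocorticoid receptor, a transcription factor that moves to the nucleus and switches on genes such as Sgk1, Tsc22d3 and Fkbp5. Neuronal firing switches on another quick set, the immediate early genes such as Fos and Arc.

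Library totals were 15.39 to 21.43 M estimated counts in D-V and 15.56 to 24.28 M in S-V. Markers of the hippocampus were present in every library, with Prox1 of dentate granule cells at 96.5 to 126 CPM (counts scaled to a common library size) in D-V and 94.1 to 150 CPM in S-V. Fibcd1, a marker of CA1, was at 170 to 196 CPM in D-V and 159 to 186 CPM in S-V. The mitochondrially encoded genes took 8.46 ± 0.89% of the counts in D-V and 8.79 ± 0.42% in S-V (SD, n = 5 each, p = 0.524 in a two-sided exact permutation test, adjusted p = 0.881 over 4 library measures). Choroid plexus, the tissue in the ventricle that secretes cerebrospinal fluid, was present in unequal amounts. Ttr, its defining marker, was at 49.95, 140, 10000, 4877 and 66.7 CPM in D-V replicates 1 to 5, against 340, 3791, 662, 3525 and 88.3 CPM in S-V. Replicates 3 and 4 of D-V and replicates 2 and 4 of S-V were rich in choroid plexus markers, so each group held libraries of both kinds. Over 24 such markers, the mean log2 deviation from the average of all libraries ran from -1.51 to 3.14 in D-V and from -1.28 to 1.96 in S-V.

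No gene differed between D-V and S-V at the level set for a call. Over 14763 genes tested, edgeR's quasi-likelihood test with Benjamini-Hochberg adjustment called 0 genes higher (0.0%) and 0 lower (0.0%) at an adjusted p under 0.05, and the smallest adjusted p was 0.590. At an unadjusted p under 0.05, 505 genes (3.42%) were higher in D-V and 445 (3.01%) were lower. The D-V libraries lay wholly above the S-V libraries for 170 genes (1.15%) and wholly below for 132 (0.894%). Of all genes tested, 7374 (49.9%) had a higher and 7389 (50.1%) a lower fitted value in D-V, with a median log2 fold change of -0.0001 (the log2 of D-V over S-V). DESeq2 called 4 genes, and limma voom called 0. Values below are therefore descriptions of genes that did not pass, and a p that misses the threshold does not show that the groups were alike. Across 12750 genes, the fold change moved with the GC content of the transcript, with a Spearman rho of 0.37. The median GC content was 56.9% for genes at a p under 0.05 and higher in D-V, 45.7% for those lower, and 49.8% for all. The part of base composition in a given gene's value was not tested, and a fit with the GC and length trends removed gave smaller values for many of the genes described below.

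**Figure D1:**
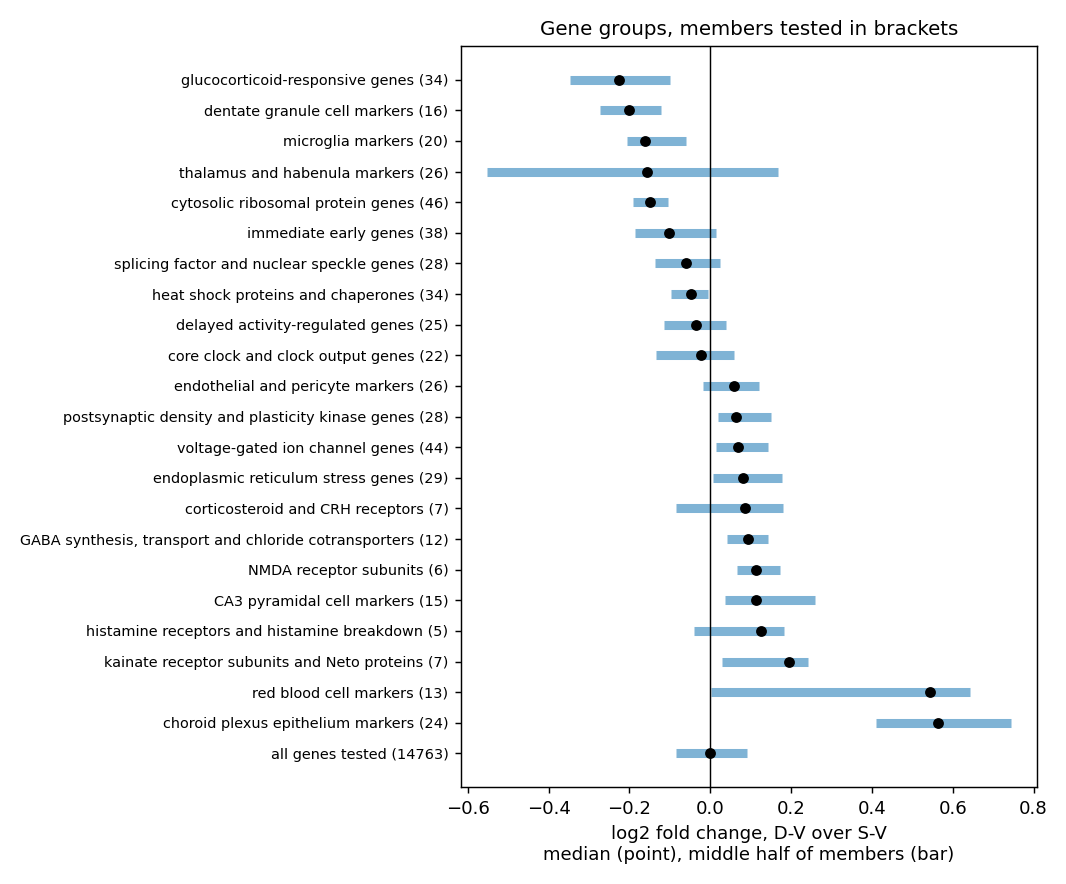
Median log2 fold change of D-V over S-V (points) for 22 gene lists and for all genes tested, with bars from the lower to the upper quartile of the members and the number of members tested in brackets. Among these lists the glucocorticoid-responsive genes had the lowest median, -0.23, and the choroid plexus markers the highest, 0.56, against a median of -0.0001 for all genes. Of 47 lists measured, 22 are shown. The replication-dependent histone genes, not shown, had a lower median of -0.27.

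The genes that glucocorticoids switch on had mostly lower values in D-V than in S-V. Of 34 tested, 31 had lower values in D-V and 3 higher, where 50.1% of all genes were lower. No member was called. At an unadjusted p under 0.05, 12 were lower and 0 higher, against 3.01% of all genes lower. For 3 members the D-V libraries lay wholly below the S-V libraries, where the share over all genes was 0.894%. The median log2 fold change was -0.23, and it ran from -0.29 to -0.20 when each library was left out in turn. It was -0.25 without the choroid-rich libraries and -0.25 with GC and length trends removed. The S-V libraries used here also serve in the comparison of S-V with Control, so that comparison and the present one are not separate evidence on these genes.

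Sgk1 encodes a kinase that regulates ion channels and transporters and is a direct target of the glucocorticoid receptor. It was at 64.8, 70.1, 90.6, 76.4 and 64.5 CPM in D-V, against 140, 106, 110, 108 and 75.7 CPM in S-V. S-V replicate 5 lay inside the D-V range, and the other 4 S-V libraries lay above every D-V library. The means were 73.3 ± 10.8 CPM in D-V and 108 ± 22.6 CPM in S-V (SD, n = 5 each). The log2 fold change was -0.56 (SE 0.15, 95% interval -0.88 to -0.24, adjusted p = 0.641 by edgeR's quasi-likelihood test with Benjamini-Hochberg adjustment). For context, D+V libraries averaged 72.7 ± 13.9 CPM (n = 5) and Control libraries 79.8 ± 14.9 CPM (n = 3).

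Tsc22d3 encodes GILZ, a leucine zipper protein that carries out part of the anti-inflammatory action of glucocorticoids. Its level was 49.3, 49.1, 52.2, 47.9 and 48.9 CPM in D-V, against 75.4, 62.9, 59.8, 67.8 and 52.1 CPM in S-V. The D-V libraries sat within a narrow band, and the lowest S-V library, replicate 5, was just below the highest D-V library. The log2 fold change was -0.36 (SE 0.10, unadjusted p = 0.00156). Plekhf1, which encodes a protein of endosomes and lysosomes, was at 3.22, 4.85, 3.83, 4.24 and 4.34 CPM in D-V, against 8.29, 6.08, 8.77, 6.92 and 5.02 CPM in S-V. The groups did not overlap, and the log2 fold change was -0.78 (SE 0.19, unadjusted p = 0.000644). Controls averaged 4.86 ± 0.888 CPM for Plekhf1 (n = 3), nearer to the D-V mean of 4.10 ± 0.612 CPM than to the S-V mean of 7.01 ± 1.55 CPM (n = 5 each).

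Nfkbia encodes the inhibitor that holds NF-kB in the cytoplasm. It was at 13.3, 12.9, 15.4, 12.3 and 13.8 CPM in D-V, against 18.6, 16.1, 15.8, 21.6 and 15.6 CPM in S-V. The groups did not overlap, though the highest D-V library and the lowest S-V library were nearly equal. Mt1, a metallothionein that binds zinc and copper, was at 155, 167, 176, 162 and 150 CPM in D-V, against 216, 185, 204, 212 and 180 CPM in S-V. These groups did not overlap either, with a log2 fold change of -0.30 (SE 0.10, unadjusted p = 0.00601). Its neighbour in the family, Mt2, averaged 105 ± 15.2 CPM in D-V and 134 ± 14.9 CPM in S-V (n = 5 each), with D-V replicate 3 above the lowest S-V library.

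Members with roles in metabolism and the cell cycle had lower values as well. Pdk4, the kinase that shuts off pyruvate dehydrogenase, had a log2 fold change of -0.52 (SE 0.17). Cdkn1a, the cell-cycle inhibitor p21, was at -0.43 (SE 0.16) and Sesn1, a sestrin that restrains mTORC1, at -0.24 (SE 0.07). Gjb6, the astrocytic gap junction protein connexin 30, was at -0.31 (SE 0.11), and Errfi1, an inhibitor of EGF receptor signalling, at -0.25 (SE 0.09). Lcn2, a secreted siderophore-binding protein, had the lowest fitted value of the list at -2.57 (SE 0.90), and a single library set it. S-V replicate 4 held 14.7 CPM of Lcn2, while the D-V libraries were at 0.195 to 0.933 CPM and the other S-V libraries at 0.526 to 1.36 CPM.

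Other well-known targets had fold changes near 0. Fkbp5, a co-chaperone that lowers the receptor's affinity for its hormone, averaged 65.6 ± 3.64 CPM in D-V and 68.0 ± 4.70 CPM in S-V (n = 5 each). Its log2 fold change was -0.05, with a 95% interval of -0.25 to 0.15. The interval was -0.42 to 0.35 for Zbtb16, a zinc finger repressor, and -0.12 to 0.12 for Rhob, a small GTPase. The 3 members with higher values in D-V were Tsku at 0.41 (SE 0.26), Fzd1 at 0.20 (SE 0.13) and Ccn2 at 0.13 (SE 0.26). The mean deviation of the 34 genes from their average over all 18 libraries, on the log2 scale, was -0.13, -0.13, 0.0084, -0.04 and -0.11 in D-V replicates 1 to 5. It was 0.19, 0.13, 0.12, 0.41 and -0.11 in S-V, where replicate 5 lay within the D-V range and replicate 4 stood highest. The D+V libraries spanned -0.18 to 0.08 and the Control libraries -0.23 to 0.18, so a Control library also reached the level of the middle S-V libraries. The mean deviation of markers of the neighbouring thalamus and habenula was -0.21, -0.40, 0.03, -0.31 and -0.30 in D-V, against 0.0053, 0.20, 0.02, 0.21 and -0.23 in S-V. In both lists S-V replicate 5 was the lowest and S-V replicate 4 the highest of S-V, and D-V replicate 3 was the highest of D-V, while the order of the other libraries differed. Control libraries were at 0.24 to 0.57 for the thalamic markers. The part of thalamic tissue in the glucocorticoid-responsive values was not tested.

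**Figure D2:**
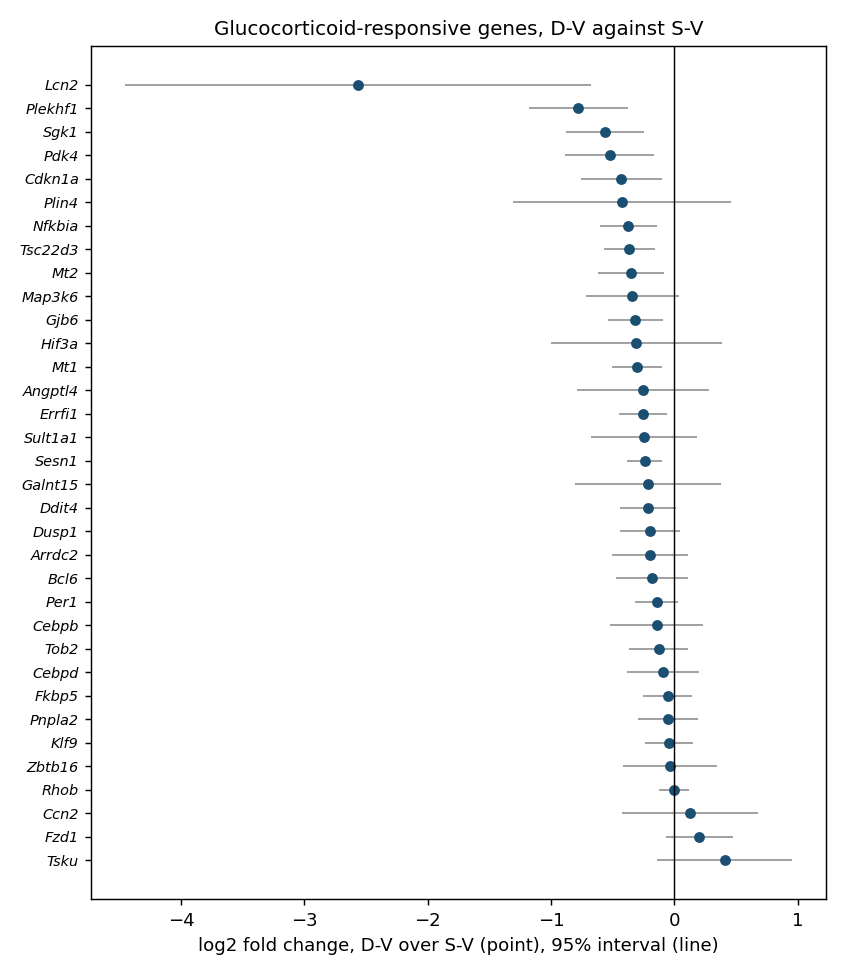
Log2 fold change of D-V over S-V for each of the 34 glucocorticoid-responsive genes (points) with the 95% interval (bars). All but 3 points lie below 0, and 12 intervals leave 0 out before adjustment for the number of genes tested.

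The glucocorticoid receptor binds DNA as a pair, at a palindrome spelled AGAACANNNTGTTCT in its full form. The letters were sought on both strands in the 250 bases before each start site of RefSeq (GRCm38.p6). Of 34 list members, 30 had a start site in that table, with 43 windows. The full form occurred in 3 of 32851 windows of all genes (0.00913%), and 1 of those belonged to a member, Sgk1. A shorter form, GNACANNNTGTNC, which lies inside the full one, occurred in 127 windows (0.387%) and in 3 members. The matches are printed because they lie in members with lower values in D-V, with the palindrome in capitals and the plus strand shown 5′ to 3′. Sgk1 lies at chr10:21993686-21993730, with the palindrome starting 189 bases before a start site. Map3k6, a kinase of the stress-activated pathway, lies at chr4:133240622-133240664 with the palindrome 181 bases before, and Mt1 at chr8:94178980-94179022 with it 94 bases before.
Sgk1: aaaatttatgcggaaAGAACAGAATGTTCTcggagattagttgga
Map3k6: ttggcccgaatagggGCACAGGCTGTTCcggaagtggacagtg
Mt1: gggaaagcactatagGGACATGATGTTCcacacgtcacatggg
A match of letters is a description and does not show binding in these samples. Map3k6 itself had a log2 fold change of -0.34 (SE 0.18, unadjusted p = 0.0734).

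The receptors and enzymes upstream of these genes did not move together. Of 7 tested corticosteroid and CRH receptor genes, 4 had higher and 3 lower values, and none had an unadjusted p under 0.05. Nr3c1, the glucocorticoid receptor itself, averaged 78.1 ± 7.66 CPM in D-V and 84.0 ± 7.26 CPM in S-V (n = 5 each), a log2 fold change of -0.11 (95% interval -0.28 to 0.07). Hsd11b1, the enzyme that regenerates active corticosterone inside cells, was at -0.17 (95% interval -0.35 to 0.01), and at -0.09 with GC and length trends removed. Crhr2, a receptor for urocortins that the choroid plexus also expresses, was highest in the choroid-rich libraries, with 8.43 CPM in D-V replicate 3.

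Among the immediate early genes, 27 of 38 had lower values in D-V and 11 higher, with a median log2 fold change of -0.10. At an unadjusted p under 0.05, 2 members were lower and 1 higher. Fos was at 10.2, 11.8, 13.7, 9.99 and 22.2 CPM in D-V, against 15.4, 17.3, 15.2, 23.6 and 17.2 CPM in S-V. D-V replicate 5 stood above all but 1 S-V library, and the other 4 D-V libraries lay below every S-V library. The log2 fold change of Fos was -0.39 (95% interval -0.80 to 0.02, unadjusted p = 0.0606). Arc, which encodes a protein of dendrites that remodels synapses, was at 131, 130, 144, 122 and 224 CPM in D-V, against 190, 140, 205, 145 and 198 CPM in S-V. Its groups overlapped, again with D-V replicate 5 highest, and the 95% interval was -0.62 to 0.17. The list's median was -0.15 without that library and -0.06 without D-V replicate 3.

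Klf2, a zinc finger factor of the vascular endothelium that flow and activity can induce, was at 9.05, 8.25, 10.7, 13.0 and 8.11 CPM in D-V, against 13.8, 13.2, 17.2, 16.1 and 13.9 CPM in S-V. The groups did not overlap, with a log2 fold change of -0.60 (SE 0.17, unadjusted p = 0.00224). Egr2, a factor of the same zinc finger family as Egr1, averaged 2.24 ± 0.400 CPM in D-V and 3.56 ± 0.930 CPM in S-V (n = 5 each), with no overlap. Jund, a partner of Fos in the AP-1 dimer that is expressed at rest, was the member wholly above in D-V, at 0.29 (SE 0.08), and at 0.16 with GC and length trends removed. Egr1 was at -0.20 (95% interval -0.45 to 0.05), Npas4, which adjusts inhibitory synapses, at 0.33 (-0.08 to 0.75), and the neurotrophin Bdnf at 0.00 (-0.30 to 0.30). The slower activity-regulated genes had no shared direction, with 9 of 25 higher and 16 lower. Vgf, a secreted neuropeptide precursor, was at 0.25 (SE 0.09), or 0.12 with those trends removed, and Arl4d, a small GTPase, at -0.48 (SE 0.16).

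**Figure D3:**
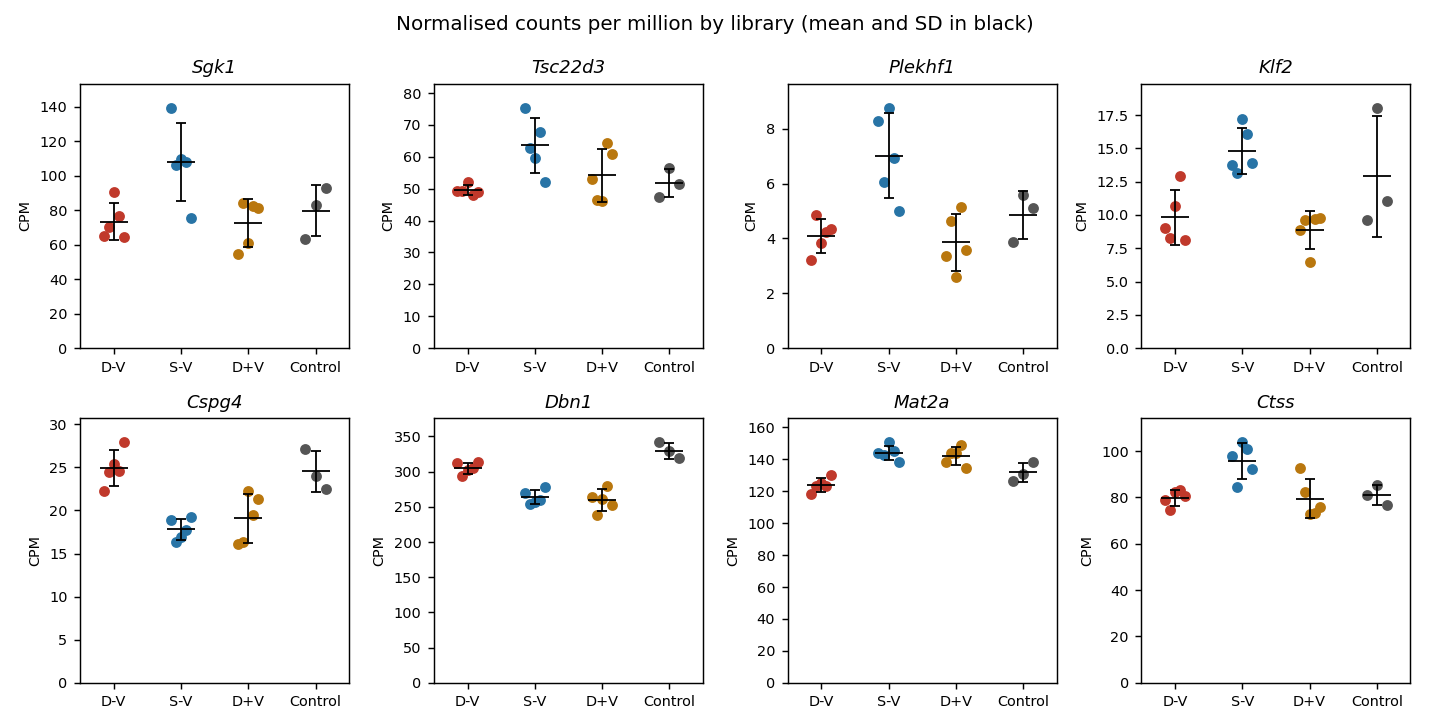
CPM per library (points) and group mean with SD (bars) for 8 genes in D-V, S-V, D+V and Control. Sgk1, Tsc22d3, Plekhf1, Klf2, Mat2a and Ctss had lower and Cspg4 and Dbn1 higher means in D-V than in S-V, and none of them was called by edgeR.

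The genes with the smallest unadjusted p that were higher in D-V included structural genes of neurons and of the vessel wall. Cspg4 encodes the NG2 proteoglycan of oligodendrocyte precursors and pericytes. It was at 22.2, 24.5, 25.4, 24.5 and 27.9 CPM in D-V, against 18.9, 16.3, 17.0, 17.7 and 19.2 CPM in S-V. The groups did not overlap, and the log2 fold change was 0.48 (95% interval 0.28 to 0.68, adjusted p = 0.590 by edgeR's quasi-likelihood test with Benjamini-Hochberg adjustment). With GC and length trends removed it was 0.35. Controls averaged 24.6 ± 2.38 CPM (n = 3), close to D-V, while D+V libraries averaged 19.1 ± 2.83 CPM (n = 5), close to S-V.

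Sptbn4 encodes the spectrin that anchors sodium channels at the axon initial segment. It was at 174, 165, 163, 172 and 173 CPM in D-V, against 143, 143, 140, 139 and 147 CPM in S-V, with no overlap. Dbn1 encodes drebrin, an actin-binding protein of dendritic spines, and stood at 312, 294, 302, 305 and 313 CPM in D-V, against 269, 255, 257, 260 and 279 CPM in S-V. All D-V libraries lay above all S-V libraries for both genes, with log2 fold changes of 0.25 (SE 0.05) and 0.21 (SE 0.05). Both values were smaller with GC and length trends removed, at 0.08 for Sptbn4 and 0.13 for Dbn1. Control means, 179 ± 6.57 CPM for Sptbn4 and 330 ± 11.3 CPM for Dbn1 (n = 3 each), were above the S-V and the D-V means.

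The 10 genes with the smallest p in this direction were chosen from these same libraries, so their lack of overlap is not separate evidence. Over all genes, 1.15% lay wholly above in D-V. The others of the 10 also showed no overlap. They were Col4a2, a collagen of vascular basement membrane (0.35, SE 0.08), Pdgfrb, the pericyte receptor for platelet-derived growth factor (0.30, SE 0.07), and Scap, the cholesterol sensor that escorts SREBP (0.23, SE 0.05). Hgs, a sorting protein of endosomes, was at 0.18 (SE 0.04), and Trim8, a ubiquitin ligase, at 0.23 (SE 0.05). Scaf1, a factor that binds the tail of RNA polymerase II, was at 0.22 (SE 0.05). Scn7a, a sodium channel relative that senses salt in brain regions beside the ventricles, had the largest value at 0.96 (SE 0.23), with 3.998 ± 0.723 CPM in D-V and 2.06 ± 0.460 CPM in S-V (n = 5 each). With GC and length trends removed, Scaf1 was at 0.08, Hgs at 0.11, Scap and Trim8 at 0.13 each and Col4a2 at 0.21.

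In the other direction, Mat2a, which makes S-adenosylmethionine, the methyl donor of the cell, was at 118, 124, 125, 123 and 130 CPM in D-V, against 144, 143, 150, 145 and 138 CPM in S-V. The groups did not overlap, and the log2 fold change was -0.22 (95% interval -0.31 to -0.12). DESeq2 called Mat2a, with an adjusted p of 0.0209, together with Cspg4 (0.0217), Sptbn4 (0.0306) and Dbn1 (0.0306). Over all alternatives, the adjusted p of each of these 4 genes ran from its DESeq2 value up to 0.989. Cd38, an enzyme that consumes NAD, was at 11.2, 10.3, 10.7, 10.6 and 12.1 CPM in D-V, against 15.2, 14.99, 13.7, 14.9 and 14.4 CPM in S-V. Its groups did not overlap, with a log2 fold change of -0.42 (SE 0.10). Acer2, a ceramidase of the Golgi, averaged 5.40 ± 0.948 CPM in D-V and 9.31 ± 2.46 CPM in S-V, and Aldh1a1, which makes retinoic acid, 60.4 ± 3.73 CPM in D-V and 79.97 ± 6.71 CPM in S-V (n = 5 each). Neither gene's groups overlapped. Of the 10 lower genes with the smallest p, 8 did not overlap, and the groups overlapped for Thbs4 and Echdc1. These too were chosen by p from the same libraries, and over all genes 0.894% lay wholly below.

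Genes of the excitatory synapse and of neuronal excitability had slightly higher values in D-V. Of 28 postsynaptic density and plasticity kinase genes, 22 were higher and 6 lower, where 49.9% of all genes were higher, with 5 at an unadjusted p under 0.05 (3.42% of all genes) and a median of 0.06. Dbn1, Nlgn2, an adhesion protein of inhibitory synapses, at 0.20 (SE 0.06), and Dlgap4, a scaffold protein, at 0.18 (SE 0.05), lay wholly above in D-V. Of 44 voltage-gated channel genes, 35 were higher, with a median of 0.07. At an unadjusted p under 0.05, 3 were higher and 1 lower, against 3.42% and 3.01% of all genes. Cacna1g, the T-type calcium channel Cav3.1, was at 0.30 (SE 0.09), and Hcn2, a pacemaker channel, at 0.14 (SE 0.06), both wholly above. Thus 3 of 28 postsynaptic and 2 of 44 channel genes lay wholly above, against 1.15% of all genes. With GC and length trends removed the median of each list was 0.03, and Nlgn2 was at 0.07, Dlgap4 at 0.08, Cacna1g at 0.18 and Hcn2 at -0.0014. The mean deviation of the channel genes was lower in D-V among the choroid-rich libraries (a difference of -0.03, 2 against 2) and higher by 0.14 among the others (3 against 3). For the postsynaptic genes these differences were 0.03 and 0.10. The choroid plexus markers themselves differed by 0.68 among the choroid-rich libraries and by -0.82 among the others. Neither subset therefore held choroid plexus content equal between the groups.

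Glutamate receptor genes had both directions. Grin2d, the NMDA receptor subunit typical of interneurons, averaged 18.01 ± 1.26 CPM in D-V and 13.7 ± 1.18 CPM in S-V (n = 5 each), wholly above, with a log2 fold change of 0.39 (SE 0.10) that was 0.22 with GC and length trends removed. Of 6 NMDA subunits 5 were higher, and Grin1, the obligate subunit, was at 0.13 (95% interval -0.03 to 0.30), or 0.03 with those trends removed. The kainate receptors gave 5 of 7 higher with a median of 0.19, which was 0.07 with GC and length trends removed. Grik4, enriched in CA3, was at 0.32 (SE 0.11) and Grik5 at 0.19 (SE 0.07), which was 0.07 with those trends removed. Of 7 metabotropic receptors 5 were higher, with a median of 0.05 that was -0.0045 without S-V replicate 3, while Grm3 was at -0.19 (unadjusted p = 0.027) and Grm2 at -0.17. Among AMPA subunits, Gria2, which sets calcium permeability, was at -0.09 and Gria1 at -0.01. On the inhibitory side, 11 of 12 genes of GABA synthesis, transport and chloride balance were higher, with a median of 0.09. Among them Slc12a5, the chloride exporter KCC2, was at 0.14 (SE 0.06), or 0.03 with GC and length trends removed. The GABA-A receptor subunits went the other way, with 10 of 13 lower and 3 higher and a median of -0.05, which was 0.02 without the choroid-rich libraries. In the choroid-rich libraries the mean deviations differed by 0.03 for the NMDA, -0.0004 for the kainate and -0.01 for the GABA synthesis and transport genes. In the other libraries they differed by 0.21, 0.25 and 0.16.

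The histamine system, which vestibular stimulation engages in motion sickness, gave no gene with an unadjusted p under 0.05. Hrh3, the presynaptic histamine receptor, was at 47.9, 66.9, 40.5, 47.4 and 50.5 CPM in D-V, against 33.3, 39.0, 37.4, 56.0 and 38.9 CPM in S-V. S-V replicate 4 lay inside the D-V range and the other 4 S-V libraries below it. Its log2 fold change was 0.31 (95% interval -0.03 to 0.66), and that of Hrh1 was 0.18 (-0.23 to 0.60). The mean deviation of the 5 histamine genes differed by -0.13 among the choroid-rich libraries and by 0.22 among the others.

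Protein synthesis and protein folding genes split in direction. All 46 cytosolic ribosomal protein genes had lower values in D-V, with 9 at an unadjusted p under 0.05 (3.01% of all genes) and a median of -0.15. Rpl10 was at -0.25 (SE 0.08), Rps18 at -0.23 (SE 0.09) and Rps12 at -0.22 (SE 0.09). Ribosomal genes have many near-identical pseudogene copies, among which the authors' counting could have split reads. The part of such copies in these values was not tested. The median was -0.09 with GC and length trends removed, with Rpl10 at -0.13 and Rps12 at -0.15. The mean deviation of this list was higher in D-V by 0.07 among the choroid-rich libraries (2 against 2). It was lower by 0.29 among the others (3 against 3, a difference of -0.29). The choroid plexus markers themselves differed by 0.68 and -0.82 in these subsets, so neither held choroid plexus content equal between the groups. Over all alternatives, a fit with the mean deviation of the choroid plexus markers as a covariate among them, the list's median ran from -0.30 to -0.08. Beyond that fit, the part of choroid plexus content was not tested. Of 29 endoplasmic reticulum stress genes, 23 were higher and 6 lower, with a median of 0.08 that was 0.03 without D-V replicate 1. Syvn1, a ubiquitin ligase of that membrane, averaged 51.0 ± 3.40 CPM in D-V and 42.1 ± 2.68 CPM in S-V (n = 5 each), wholly above. Another member, Atf4, lay wholly below, at a log2 fold change of -0.04 (SE 0.06). Over all genes 1.15% lay wholly above and 0.894% wholly below. Heat shock proteins and chaperones gave 28 of 34 lower with a median of -0.05, or -0.01 with GC and length trends removed. Of 28 splicing factor genes 19 were lower and 9 higher, with a median of -0.06 that was -0.02 once GC and length trends were removed.

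The clock genes gave 7 higher and 15 lower of 22, with a median of -0.02 that was -0.06 without D-V replicate 1. Nr1d1, the repressor REV-ERB alpha, averaged 79.1 ± 5.59 CPM in D-V and 66.4 ± 4.95 CPM in S-V (n = 5 each), a log2 fold change of 0.25 (SE 0.07). Per1, a clock gene that glucocorticoids also induce, was at -0.14 (SE 0.08). The labels give no hour of collection.

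Markers of cell types were compared to see which moved beside these genes. In bulk tissue, fewer cells of a type and less RNA per cell cannot be told apart. Of 20 microglial markers 18 were lower in D-V, with a median of -0.16. Ctss, a lysosomal protease, was at 79.0, 74.4, 82.2, 83.0 and 80.7 CPM in D-V, against 97.7, 84.4, 104, 101 and 92.2 CPM in S-V, with no overlap. Gpr34, a receptor of microglia, averaged 13.4 ± 0.777 CPM in D-V and 15.9 ± 2.18 CPM in S-V (n = 5 each), and its groups overlapped. With GC and length trends removed, Ctss was at -0.17 and Gpr34 at -0.15, against -0.26 and -0.25 before. Of 16 dentate granule cell markers 14 were lower, with a median of -0.20, while 12 of 15 CA3 markers were higher, with a median of 0.11. The difference of the mean deviation in microglial markers was -0.04 among choroid-rich libraries and -0.20 among the others, and in dentate markers -0.04 and -0.26.

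**Figure D4:**
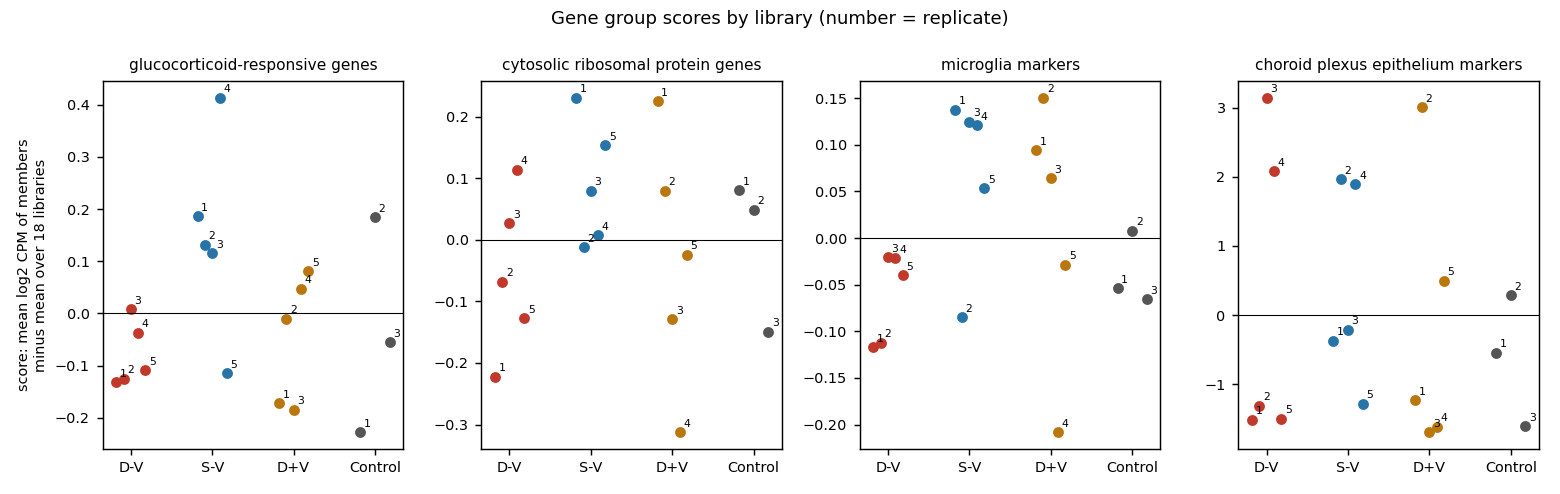
Mean log2 CPM of 4 gene lists, less the mean over all 18 libraries (points, 1 per library, numbered by replicate), in D-V, S-V, D+V and Control. For the glucocorticoid-responsive genes the D-V libraries lie between -0.13 and 0.0084, and the S-V libraries between -0.11 and 0.41.

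Markers from outside the hippocampus also varied between libraries. Of 26 markers of the thalamus and habenula 17 had a lower and 9 a higher value in D-V, with quartiles of -0.55 and 0.17. At an unadjusted p under 0.05, 6 were lower and 0 higher, against 3.01% of all genes lower. For 2 markers the D-V libraries lay wholly below the S-V libraries, where the share over all genes was 0.894%. The median of -0.16 ran from -0.28 to -0.07 when each library was left out. The members named next are among the lower ones. Tcf7l2, a transcription factor of the thalamus, averaged 4.16 ± 1.099 CPM in D-V and 6.86 ± 1.77 CPM in S-V (n = 5 each). Slc17a6, the glutamate transporter VGLUT2 of subcortical neurons, was at -0.66 (SE 0.21). Gbx2, another thalamic factor, was at 0 to 0.097 CPM in D-V and 0.33 to 1.19 CPM in S-V, low in both groups but without overlap. Of 13 red blood cell markers 10 were higher, with a median of 0.54 that was 0.23 without D-V replicate 3. All 24 choroid plexus markers had higher fitted values in D-V, with a median of 0.56, yet the mean deviation of the list was lower by 0.22 (a difference of -0.22). The median was -0.46 without D-V replicate 3 and -0.85 without the choroid-rich libraries, so the direction rested on single libraries. Of 26 endothelial and pericyte markers 19 were higher, with a median of 0.06 that was -0.03 without the choroid-rich libraries and 0.02 without D-V replicate 4. A fit with the mean deviation of the choroid plexus markers as a covariate called 0 genes. By edgeR's quasi-likelihood test its smallest adjusted p was 0.297, with 1136 genes at an unadjusted p under 0.05. Beyond that fit, the part of any of these tissues in the differences of other genes was not tested.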

How the data were processed

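Polyadenylated RNA of mouse hippocampus was sequenced in 18 libraries made with an NEBNext Ultra kit, per the labels' protocols. The table deposited by the authors holds estimated counts, with 6.8 to 8.05% of values in a library not whole, per the file headers and the values. The tools named in the submitters' processing notes, without role or order, are DESeq2, StringTie 1.3.1, HISAT2 and Bowtie2 2.2.8. Build, annotation and counting options, strand use included, are not given in the sources at hand, so reads of overlapping or near-identical genes could not be assigned with certainty. PCR copies were not marked, so a count is not an independent molecule.

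Values were rounded to whole numbers. Of 22063 genes, 21973 had a symbol, and the other 90 held 0.0562% of counts. The filterByExpr rule of edgeR kept 14763 genes with 99.97% of counts. All 18 libraries entered a single fit of 4 group means with TMM scaling in edgeR 4.0.16 (R 4.3.3). D-V minus S-V was tested with the quasi-likelihood F test and Benjamini-Hochberg adjustment over all genes, called at 0.05. Biological variation was 15.4%. CPM were TMM-scaled. On data simulated with known changes for this comparison (14763 genes, 50 changed at each fold), 38% of genes changed 1.3-fold, 60% at 1.5-fold, 90% at 2-fold and 100% at 4-fold were recovered, with 2.7% of calls false. The changed genes were drawn above a minimum mean CPM, and each gene was simulated on its own. That simulation gave 148 calls where the data gave 0, so recovery in the data may be lower. Library measures were compared by an exact permutation test over 252 splits. DESeq2 1.42.0, limma 3.58.1 (voom), other scalings and filters, GC and length splines, a replicate block and leaving out each library were alternatives. So were fits with the mean deviation of the choroid plexus markers as a covariate and with the D-V and S-V libraries alone. GC content and length came from the longest GENCODE transcript of each gene, matched by gene identifier.

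Same-numbered D-V and S-V libraries deviated with correlations of 0.16, -0.231, -0.266, 0.254 and 0.31, so the numbers were not treated as pairs.

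The comparison and the gene lists were chosen with earlier results of these data known. The genes named were the 10 higher and 10 lower with the smallest p, the 4 in each direction with the largest fold at a p under 0.05, the 3 of each described list with the smallest p, and a fixed set (Hrh3, Hrh1, Bdnf, Tsc22d3, Sgk1, Fkbp5, Npas4, Egr1, Arc, Fos). Genes named by p or fold needed a regular symbol and a mean log2 CPM of 1 or more. Other named members were chosen after their values were seen. A gene that this rule names is not reported here. Start-site windows were from RefSeq (GRCm38.p6).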

Additional observations from a re-analysis of the deposited data

Results flagged for a closer look

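Within the 5 libraries of a group, 21 of 228 sets of values (9.21%) held a library set apart from the other 4, where chance gives about 1 in 20. In D-V replicate 3, Col4a2 was at 46.4, Hba-a2 at 458 and Maob at 40.1 CPM, above the other D-V libraries, while Hsd11b1 at 42.0 and Fkbp5 at 59.3 CPM were below them. In D-V replicate 5, Arc was at 224 CPM and the immediate early gene list at a mean deviation of 0.18, above the others. Rps15a at 125 CPM, Hnrnph1 at 112 CPM and the number of genes with a count, 15940, were below them. In D-V replicate 1, Nr3c1 at 91.4 CPM was above and Vgf at 177 CPM below the other D-V libraries.

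In S-V replicate 1, the total of 24.28 M counts and Rps12 at 171 CPM were above the other S-V libraries, and Pdgfrb at 19.6 CPM was below. In S-V replicate 4, Fos at 23.6 CPM and Hrh3 at 56.0 CPM were above the others, and the splicing factor list was below them at a mean deviation of -0.0015. Egr2 at 5.19 CPM and Egfl7 at 18.5 CPM were highest in S-V replicate 5, and Tcf7l2 at 9.94 CPM in S-V replicate 3.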

How the results depend on the processing

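Of 22 alternative settings, DESeq2 was the only one that made calls, with 4 genes. Of 88 named genes, 83 kept their direction in every setting run. Hcn2 was at -0.0014 with GC and length trends removed and -0.0013 with the replicate block added to that. Leaving out 1 library at a time gave -0.13 to 0.88 for Slc13a4, -0.34 to 1.34 for Trpv4, -0.27 to 0.90 for Calml4 and -0.0907 to 0.11 for Bdnf. Without the choroid-rich libraries, an alternative chosen after seeing the data, these were -0.62, -0.76, -0.51 and -0.23, and limma voom gave -0.087 for Slc13a4 and -0.0801 for Trpv4. The causes were not tested. Of 1034 list medians, 13 moved by over 1 SD. With each library left out, D-V minus S-V ran from -0.532 to 0.0256 percentage points for the mitochondrial share, -0.469 to 0.131 for the share of the 50 most abundant genes, -53.7 to 43.9 for genes with a count and -1.24 to 1.06 M for totals. With the replicate number as a block, edgeR's quasi-likelihood test called 0 genes, with a smallest adjusted p of 0.866 and 842 genes at an unadjusted p under 0.05. The same test on the D-V and S-V libraries alone, over 14137 genes, also called 0. Its smallest adjusted p was 0.126, with 1410 genes at an unadjusted p under 0.05. Over all alternatives the number of genes at that level ran from 637 to 1410, against 950 in the main fit. At 5 libraries a side, changes of 1.5-fold or less were often missed on simulated data.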

Other observations

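Several gene groups outside those above were also measured, none with a called gene. Of 28 synaptic vesicle and release genes 23 had higher values in D-V, with a median log2 fold change of 0.07. The mean deviation of this list differed by -0.05 among the choroid-rich libraries and by 0.10 among the others. Syn1, which tethers vesicles, was at 0.16 and Slc17a7, the vesicular glutamate transporter of forebrain neurons, at 0.19. Of 19 AMPA receptor and auxiliary genes 14 were higher, with a median of 0.07, or 0.02 with GC and length trends removed. Of 19 interneuron markers 13 were higher, with a median of 0.12 that was 0.05 without D-V replicate 2, and with a difference of 0.0023 among the choroid-rich libraries and 0.11 among the others. Pvalb, the calcium buffer of fast-spiking interneurons, was at 25.3, 26.4, 26.5, 29.8 and 28.7 CPM in D-V, against 35.3, 29.9, 33.4, 31.1 and 35.1 CPM in S-V. Its groups did not overlap, with a log2 fold change of -0.27 (SE 0.09, unadjusted p = 0.00666), while Sst, the peptide of another interneuron class, was at 0.12 (SE 0.10). Adra1d and Adrb1, receptors for noradrenaline, were at 0.26 and 0.27.

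All 9 tested replication-dependent histone genes had lower values in D-V, with a median of -0.27 (-0.12 without D-V replicate 1) and none at an unadjusted p under 0.05. Such transcripts mostly lack a poly(A) tail, so their level after poly(A) selection is hard to read. Of 25 oligodendrocyte and myelin genes 20 were lower, with a median of -0.13 that was -0.05 without S-V replicate 1. The list's difference was 0.06 among the choroid-rich libraries and -0.17 among the others, and Cspg4 was the member wholly above in D-V. Mbp, a main myelin protein, averaged 3811 ± 548 CPM in D-V and 4209 ± 630 CPM in S-V (n = 5 each). Nuclear-encoded oxidative phosphorylation genes gave 31 of 38 lower, with a median of -0.07 that was 0.0005 with GC and length trends removed. The list's difference was 0.08 among the choroid-rich libraries and -0.16 among the others. Of 20 meningeal markers 17 were higher, with a median of 0.14. It was -0.05 without D-V replicate 4 and -0.31 without the choroid-rich libraries, so its direction rested on single libraries.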
